A study of Mus musculus with 6 samples.

Results

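Interleukin ligands, their receptor chains and their soluble antagonists were examined in RNA-seq data from primary mouse embryonic fibroblasts (pMEFs) labelled as wild type or knockout for HAT1, the histone acetyltransferase that modifies newly made histone H4. The members were taken by symbol, as every gene whose name starts with Il and a number, which gave 51 of the 17512 genes in the table. By their known roles, 15 were ligands, 31 were receptor chains and 4 were antagonists or decoys, and the remaining 1, Il4i1, encodes a secreted amino acid oxidase that IL-4 induces.

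Total RNA came from 3 HAT1 WT lines (36, 47 and 78) and 3 HAT1 KO lines (33, 41 and 72), with no treatment labelled and all on a C57bl6 strain background. The comparison asks how RNA levels differ between the genotypes. The labels give each line a number but do not say whether each came from a separate embryo, so the p-values measure the spread between these lines. MEFs are cultured from embryos without their internal organs and are not sorted, so such a culture can hold other cell types.

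Interleukins are secreted proteins through which immune cells and connective tissue signal to each other. A ligand binds a specific receptor chain, and that chain usually works with a shared signalling partner such as gp130, the common gamma chain or the IL-1 receptor accessory protein. Receptor antagonists, soluble binding proteins and decoy receptors occupy the ligand or the receptor without signalling. Fibroblasts are best known in this network as responders, through the receptors for IL-1, IL-4, IL-6 family cytokines, IL-11 and IL-17, while IL-1β, the IL-10 receptor alpha chain and the IL-1 receptor antagonist are abundant products of macrophages.

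The libraries, read on lanes 8, 6 and 7 for the WT lines and 6, 7 and 6 for the KO lines, held 67720628 to 98786746 counts, and 14773 genes passed the filter on low counts. Hat1 itself stood at 17.4, 23.0 and 20.1 CPM (counts scaled to the TMM-adjusted library total) in WT lines 36, 47 and 78 and at 10.2, 10.0 and 10.3 CPM in KO lines 33, 41 and 72, a log2 fold change of -0.99 ± 0.12 (SE; adjusted p = 0.0376 by edgeR's quasi-likelihood test with Benjamini-Hochberg adjustment). Hat1 RNA thus remained in the libraries labelled KO, and as the deleted part of the gene was not examined, these counts over the whole gene do not show its loss. All 9 fibroblast markers were detected, with a summed level of 46341 to 78350 CPM that overlapped between the genotypes. Col1a1 and Col1a2 gave 34799 and 16682 of the 63878 CPM of that sum in the WT lines. Of the 9, 1 did not overlap, Thy1, which was lower in the KO lines (log2 fold change -0.31, unadjusted p = 0.0350, edgeR). A list of 18 myeloid (macrophage-lineage) markers was also detected, at 6160 to 6936 CPM in the WT lines and 2971 to 3828 CPM in the KO lines (exact permutation p = 0.1, the smallest that 3 against 3 lines allow). All 18 had a lower mean in the KO lines and 17 passed the thresholds described below, among them Lyz2, Csf1r, Adgre1 and Spi1. Lymphoid markers summed to at most 0.637 CPM and mast cell markers to at most 0.966 CPM, while endothelial markers summed to 11.4 to 12.6 CPM in the WT lines and 8.91 to 12.4 CPM in the KO lines and epithelial markers to at most 2.49 CPM. Of the 4 endothelial markers tested, Pecam1 and Cdh5, both under 1 CPM, were lower by the same thresholds, and Kdr and Tek overlapped between genotypes. Y-linked genes summed to 183 and 159 CPM in WT lines 36 and 47 and to at most 2.33 CPM in the other 4 lines. The X-linked RNA Xist stood at 1.25, 14.6 and 298 CPM in WT lines 36, 47 and 78 and at 154, 191 and 146 CPM in KO lines 33, 41 and 72.

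The promoters of the lower members are shown first, because Il1rn, Il1b and Il6ra had the largest folds among the lower members with an entry in the RefSeq promoter table (build GRCm38.p6), which held 40 of the 51 members. Each line gives the 250 bases before the transcription start, 5′ to 3′ on the gene's own strand, at chr2:24336610-24336859 (+, the first of 3 starts) for Il1rn, chr2:129371140-129371389 (-) for Il1b and chr3:89913197-89913446 (-) for Il6ra. Capitals mark matches, on either strand, to 4 short motifs. These were GAGGAA, the core letters that PU.1 and related ETS factors recognise, the AP-1 motif TGANTCA, the spaced palindrome that STAT proteins recognise, TTCNNNGAA, and the TATA box, searched for as TATAAA.
Il1rn: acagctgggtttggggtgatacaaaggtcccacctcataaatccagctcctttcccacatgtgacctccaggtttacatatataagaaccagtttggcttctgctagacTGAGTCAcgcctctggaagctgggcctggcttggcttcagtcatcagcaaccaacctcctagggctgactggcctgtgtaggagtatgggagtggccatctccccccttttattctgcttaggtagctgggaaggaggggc
Il1b: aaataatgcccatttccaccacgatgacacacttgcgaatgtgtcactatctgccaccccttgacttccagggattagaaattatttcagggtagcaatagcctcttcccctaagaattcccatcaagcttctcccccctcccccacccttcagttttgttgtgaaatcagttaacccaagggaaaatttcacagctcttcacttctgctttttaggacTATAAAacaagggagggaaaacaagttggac
Il6ra: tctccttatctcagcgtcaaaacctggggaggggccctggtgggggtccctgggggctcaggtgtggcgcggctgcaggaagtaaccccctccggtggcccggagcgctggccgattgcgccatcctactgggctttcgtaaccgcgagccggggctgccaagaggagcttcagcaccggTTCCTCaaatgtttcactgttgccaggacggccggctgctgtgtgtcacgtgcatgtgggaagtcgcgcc
The Il1rn window held the AP-1 motif, as TGAGTCA, with its first base at position -141 from the start. The windows of the other Il1rn starts held none of the 4 motifs, and which start these lines use was not examined. The Il1b window held the TATA box at position -31. The Il6ra window held the ETS letters on the opposite strand, read as TTCCTC, at position -70. Of all 32851 promoter windows of this length, 23.3% held the ETS letters, 6.75% the AP-1 motif, 7.02% the STAT motif and 12.4% the TATA box, so each of these matches is a description of the letters and nothing more.

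Across the 44 interleukin genes that passed the filter, the KO lines tended to the lower side, with single genes that differed by amounts from under 1.5-fold to over 8-fold. None was past an adjusted p of 0.05 in edgeR's quasi-likelihood test with Benjamini-Hochberg adjustment, against 0.528% of all genes tested, all of these lower in the KO lines. With 3 lines a genotype, 12 members had an unadjusted p under 0.05, which is 27.3% of those tested against 14.6% of all genes tested. DESeq2 put 8 of the 44 past an adjusted p of 0.05, against 871 of all 14773 genes tested. Limma voom with sample weights put 4 there, against 267 of all 14773.

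The study's own thresholds were an unadjusted p under 0.05 with at least a 1.5-fold difference. By these, 7 members were lower in the KO lines (15.9% of those tested, against 4.62% of all genes tested), namely Il1rn, Il1b, Il15, Il6ra, Il10ra, Il21r and Il4. No member was higher by them, against 1.5% of all genes tested. The values of the lines did not overlap between genotypes for 10 members that were lower in the KO lines (22.7%, against 12.4% of all genes) and for 2 that were higher (4.55%, against 9.59%). The median log2 fold change was -0.22 over the 44 members and 0.0085 over all genes tested. In all, 31 of the 44 were on the lower side, or 70.5% against 48.5% of all genes tested. By role these were 7 of the 12 ligands, 20 of the 28 receptor chains and all 3 antagonists or decoys tested, and Il4i1. Among the 7, an adjustment for sequencing lane left the unadjusted p of Il15, Il21r and Il4 above 0.05, at 0.0643, 0.119 and 0.0797 (edgeR). As WT line 36 was the only line on lane 8, it adds nothing to the genotype difference in that fit.

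**Figure D1:**
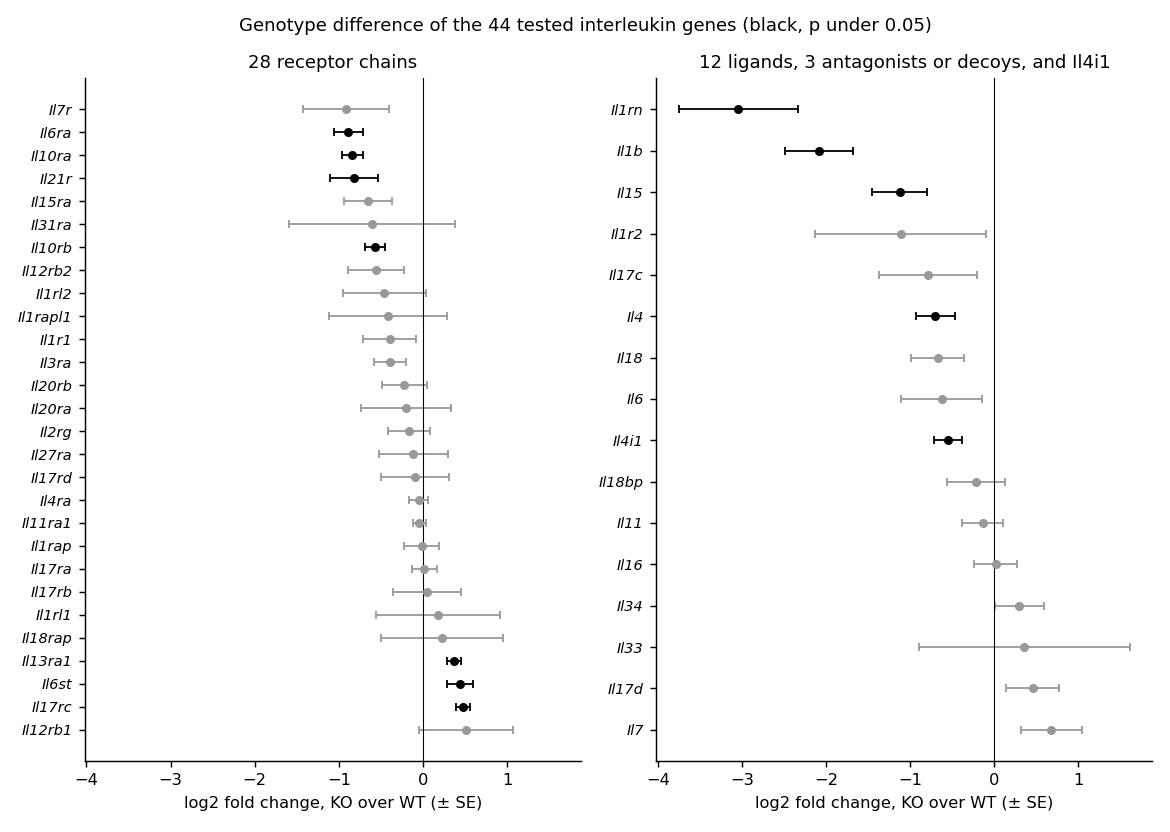
Log2 fold change (KO over WT, points, with bars of 1 SE) for the 28 receptor chains tested (left) and for the 12 ligands, 3 antagonists or decoys and Il4i1 (right). Black points had an unadjusted p under 0.05; 9 of these 12 lie left of 0, from Il1rn at -3.04, and the 3 to the right are Il13ra1, Il6st and Il17rc, at 0.37 to 0.48.

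Most ligands were scarce. Of the 15, 7 reached a mean of 1 CPM over the 6 lines and none reached 10 CPM, against 15 of the 31 receptor chains. Per kilobase of exon, the highest ligand means in the WT lines were those of Il17d at 2.03 ± 0.12 (SD, n = 3) and Il33 at 1.39 ± 1.25 CPM per kb, far under the 51.0 ± 7.98 CPM per kb of the receptor chain Il6st. The ligands called lower thus rest on 10 to 169 counts a library.

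Il1b, which encodes the inflammatory cytokine IL-1β, had 0.915, 0.919 and 0.930 CPM in WT lines 36, 47 and 78 and 0.337, 0.178 and 0.130 CPM in KO lines 33, 41 and 72. The WT lines were nearly equal and the KO lines were all under them. In counts this was 69 to 92 a library against 10 to 30, and the log2 fold change was -2.08 ± 0.41 (SE; adjusted p = 0.106, edgeR). Its relative Il1a was left out by the filter, with 26 counts summed over the WT lines and 14 over the KO lines.

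Il15 encodes a cytokine that sustains natural killer cells and memory T cells. It stood at 2.0, 2.10 and 1.45 CPM in the WT lines and 0.685, 1.20 and 0.661 CPM in the KO lines, without overlap, for a log2 fold change of -1.12 ± 0.32 (SE; adjusted p = 0.213, edgeR). With WT line 78 alone, the WT line with the least Y-linked RNA, against the KO lines, it was -0.75 (edgeR). Its own receptor chain, Il15ra, overlapped between genotypes, with 3.0, 4.25 and 4.87 CPM in the WT lines against 1.91, 3.37 and 2.44 CPM.

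Il4, the cytokine of type 2 immunity, was at 0.968, 1.07 and 1.23 CPM in the WT lines and 0.606, 0.666 and 0.739 CPM in the KO lines. The genotypes did not overlap, and the log2 fold change was -0.70 ± 0.24 (SE; adjusted p = 0.265, edgeR). The unadjusted p was no longer under 0.05 when WT line 47, WT line 78, KO line 33 or KO line 41 was left out, and was 0.0961 with WT line 78 alone against the KO lines (edgeR).

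The 4 ligands of highest mean level, Il33, Il17d, Il16 and Il7, all overlapped between genotypes. Il7, which encodes a lymphocyte survival factor made by stromal cells, had 1.14, 1.29 and 1.63 CPM in the WT lines and 1.62, 1.54 and 3.34 CPM in the KO lines. Il17d, a member of the IL-17 family, had 2.43 to 2.73 CPM in the WT lines and 2.56, 2.74 and 5.34 CPM in the KO lines, so KO line 72 alone stood high for both. Il16, a chemoattractant that binds CD4, differed by 0.01 on the log2 scale (95% interval -0.61 to 0.64), and 15.3% of its exon bases overlap Stard5 on the other strand. Il10 and Il27 were left out by the filter, with 31 against 8 and 16 against 8 counts summed over the WT and the KO lines.

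**Figure D2:**
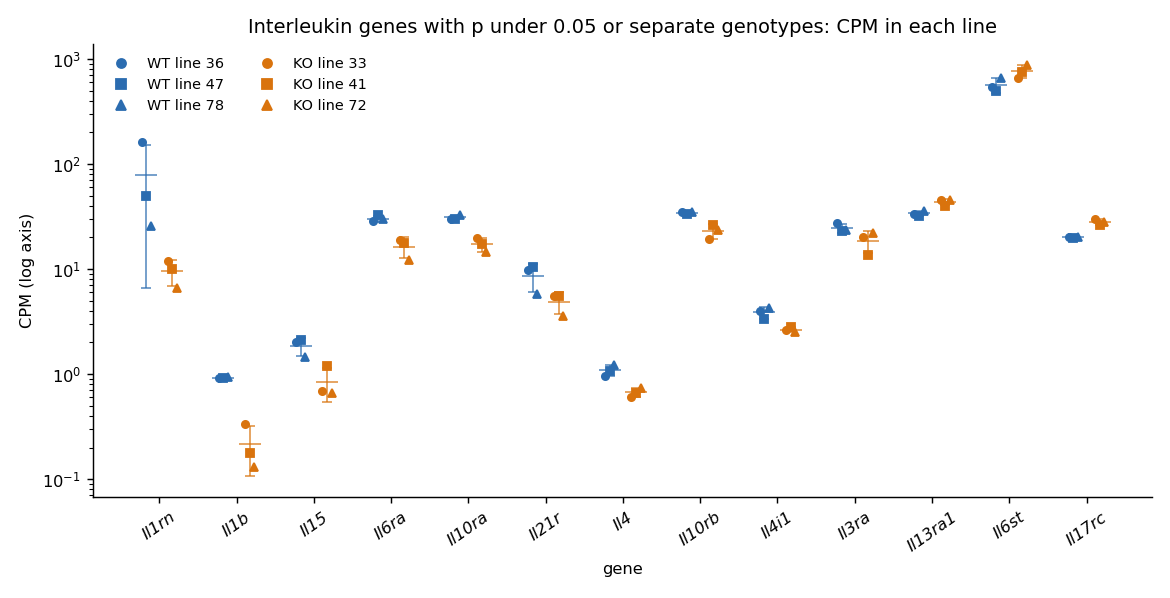
CPM (log axis) in each line for the 13 members with an unadjusted p under 0.05 or without overlap between genotypes, with the mean (bar) and SD (whiskers) of the 3 WT lines (blue) and the 3 KO lines (orange). The 10 members from Il1rn to Il3ra are lower in every KO line, Il13ra1 and Il17rc are higher in every KO line, and Il6st overlaps.

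The receptor chains showed both directions. Of the 28 tested, 3 were lower at the study's thresholds and none was higher, against 4.62% and 1.5% of all genes tested. By the unadjusted p alone, 4 were lower and 3 were higher, against 1295 and 869 of all 14773 genes tested. The lower ones included both chains of the IL-10 receptor and the IL-6 receptor alpha chain, and the higher ones were Il17rc, Il13ra1 and Il6st.

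Il10ra, the ligand-binding chain through which IL-10 restrains macrophages, had 30.2, 30.3 and 32.5 CPM in the WT lines and 19.9, 17.3 and 14.6 CPM in the KO lines. The WT lines lay close together and well above every KO line, at a log2 fold change of -0.84 ± 0.12 (SE; adjusted p = 0.0594, edgeR), the smallest adjusted p of any member. Il10rb, the chain that the IL-10, IL-22 and interferon lambda receptors share, had 34.6, 33.1 and 35.1 CPM in the WT lines and 19.4, 26.5 and 23.4 CPM in the KO lines. It did not overlap either, but its log2 fold change of -0.57 ± 0.12 (SE; adjusted p = 0.127, edgeR) was just under 1.5-fold. The annotation places Gm21970 on 14.9% of the exon bases of Il10rb, on the same strand.

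Il6ra, the chain that binds IL-6, and Il6st, the gp130 chain that then signals, differed with opposite signs. Il6ra had 28.5, 32.6 and 29.7 CPM in the WT lines and 19.1, 17.8 and 12.2 CPM in the KO lines. Every KO line was under every WT line, for a log2 fold change of -0.89 ± 0.18 (SE; adjusted p = 0.109, edgeR). Il6st had 543, 491 and 663 CPM in the WT lines and 662, 746 and 885 CPM in the KO lines, the highest level of any member. WT line 78 and KO line 33 met at the same level, and the log2 fold change was 0.43 ± 0.15 (SE; unadjusted p = 0.0294, adjusted p = 0.289, edgeR). That unadjusted p was above 0.05 when WT line 36, WT line 47, KO line 41 or KO line 72 was left out. The ligand Il6 overlapped between genotypes, at 0.583, 0.397 and 1.20 CPM in the WT lines and 0.629, 0.355 and 0.428 CPM in the KO lines.

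Il17rc pairs with Il17ra to receive IL-17A and IL-17F. Il17rc stood at 20.3, 19.9 and 20.3 CPM in the WT lines and 30.2, 26.2 and 27.8 CPM in the KO lines. No KO line came near the narrow WT range, and the log2 fold change was 0.48 ± 0.08 (SE; adjusted p = 0.0772, edgeR), a 1.39-fold difference. Il17ra itself differed by 0.02 on the log2 scale, with a 95% interval from -0.34 to 0.38.

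Il13ra1 binds IL-13 and joins Il4ra in the type II IL-4 receptor of non-haematopoietic cells. It had 33.7, 32.1 and 35.7 CPM in the WT lines and 45.6, 40.1 and 45.6 CPM in the KO lines, without overlap, for a log2 fold change of 0.37 ± 0.08 (SE; adjusted p = 0.132, edgeR). The gene is X-linked. With WT line 78 alone, the WT line with the least Y-linked RNA, against the KO lines, the log2 fold change was 0.31 (edgeR). Its partner Il4ra, at 146, 156 and 170 CPM in the WT lines and 163, 129 and 162 CPM in the KO lines, differed by -0.05 on the log2 scale (95% interval -0.33 to 0.23). The decoy that competes for IL-13, Il13ra2, was left out by the filter, with 26 counts summed over the WT lines and 52 over the KO lines, 48 of these in KO line 72.

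Il21r, the receptor chain for the T cell cytokine IL-21, had 9.78, 10.4 and 5.73 CPM in the WT lines and 5.52, 5.53 and 3.60 CPM in the KO lines. WT line 78 lay only just above the KO lines. The log2 fold change was -0.82 ± 0.28 (SE; adjusted p = 0.277, edgeR), and it was -0.21 when WT line 78 alone was set against the KO lines. The unadjusted p was no longer under 0.05 without WT line 36, WT line 47 or KO line 72. Its partner, the common gamma chain Il2rg, overlapped between genotypes at 4.22 to 5.60 CPM in the WT lines and 3.48 to 5.90 CPM in the KO lines, and 30.5% of its exon bases lie under Gm20489 on the same strand.

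Il3ra, which binds IL-3, did not overlap between genotypes, at 22.8 to 27.2 CPM in the WT lines and 13.6 to 22.0 CPM in the KO lines, but its unadjusted p was 0.0843 (edgeR). Il4i1 had 3.95, 3.33 and 4.30 CPM in the WT lines and 2.64, 2.80 and 2.50 CPM in the KO lines, for a log2 fold change of -0.55 ± 0.17 (SE; adjusted p = 0.229, edgeR). As 83.9% of its exon bases overlap Tbc1d17 on the other strand and the library kit does not mark strand, reads of the pair cannot be told apart.

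By level per kilobase, the receptor chains that led in the WT lines were Il6st, then Il4ra at 26.1 ± 2.01 and Il1rl1 at 17.4 ± 5.51 CPM per kb (SD, n = 3). Il11ra1, the IL-11 receptor, followed at 11.4 ± 0.74 and Il1r1, the signalling IL-1 receptor, at 11.2 ± 3.58 CPM per kb, which lie within each other's spread. Il11ra1 differed between genotypes by -0.05 on the log2 scale (95% interval -0.23 to 0.14), and the shared accessory chain Il1rap by -0.01 (95% interval -0.52 to 0.49). Il2rb, Il17re and Il23r, which serve IL-2, IL-17C and IL-23, were left out by the filter, with summed counts of 10 against 16, 13 against 4 and 14 against 3 in the WT and the KO lines.

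**Figure D3:**
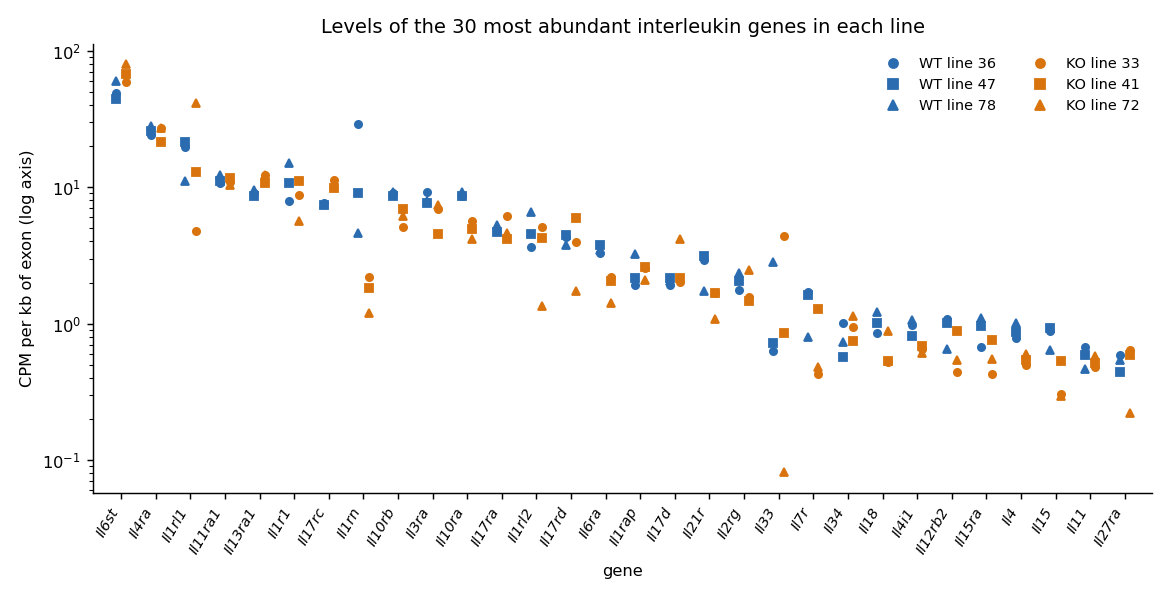
CPM per kb of exon (log axis) in each of the 3 WT lines (blue) and 3 KO lines (orange) for the 30 members of highest level. Receptor chains fill the left of the plot, Il6st highest at 51.0 CPM per kb in the WT lines, while Il1rn has a WT mean of 14.3 and a KO mean of 1.73 CPM per kb.

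Il1rn, the secreted antagonist that blocks the IL-1 receptor, had the largest difference of all tested members. It stood at 162, 50.1 and 25.7 CPM in WT lines 36, 47 and 78 and at 12.1, 10.1 and 6.66 CPM in KO lines 33, 41 and 72. The 3 WT lines spread over 6.29-fold, yet the lowest of them was above every KO line. The log2 fold change was -3.04 ± 0.71 (SE; adjusted p = 0.15, edgeR), or 8.24-fold. Without WT line 36 it was -1.98, and it was -1.40 with WT line 78 alone against the KO lines. Among the members of the IL-1 pathway, Il1b and Il1rn were thus lower in the KO lines by the study's thresholds, while Il1r1, Il1rap and the decoy Il1r2 overlapped between genotypes.

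The other antagonists were scarce. Il18bp, which captures IL-18, had 0.663, 0.807 and 1.16 CPM in the WT lines and 0.820, 0.917 and 0.531 CPM in the KO lines. Il1r2, which captures IL-1 without signalling, had 0.239, 0.174 and 0.344 CPM in the WT lines and 0.0898, 0.266 and 0 CPM in the KO lines, or 66 and 26 counts in all. Both overlapped between genotypes.

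The 7 members lower at the study's thresholds were next set, on a scale chosen after seeing the data, beside the summed level of the 18 myeloid markers, which in the KO lines was 53.2% of that in the WT lines. Lyz2 gave 2937 of the 6554 CPM of that sum in the WT lines. Single markers had folds (KO over WT) from 0.434 (Mrc1) to 0.728 (Cx3cr1). In these bulk samples, fewer cells of a type and less RNA per cell cannot be told apart. Il10ra, at 55.7% of its WT mean, Il6ra at 54.1% and Il21r at 56.6% were close to the markers' own ratio, and per 1000 CPM of the markers they overlapped between genotypes. Il10ra, for example, came to 4.59, 4.37 and 5.27 per 1000 marker CPM in the WT lines against 5.44, 4.53 and 4.91 in the KO lines. Il15 and Il4 overlapped on this scale too. Il1b did not, at 0.139, 0.133 and 0.151 in the WT lines against 0.0921, 0.0464 and 0.0436 in the KO lines. Il1rn did not either, at 24.6, 7.23 and 4.17 in the WT lines against 3.30, 2.64 and 2.24 in the KO lines. The marker sum was lower in every KO line, so a member with equal CPM in all lines comes out higher in the KO lines on this scale. Members higher in every KO line on it included Il4i1, which was lower in CPM, and Il4ra and Il11ra1, which overlapped in CPM. The shares of all genes that overlap or separate on this scale were not counted. The Y-linked level split the WT lines, at 183, 159 and 2.33 CPM in lines 36, 47 and 78. In KO lines 33, 41 and 72 it was lower still, at 0.0674, 0.118 and 0.0518 CPM. It thus cannot be fully told apart from genotype. The part of the myeloid marker level or of the Y-linked level in the differences of the 7 members was not tested.

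**Figure D4:**
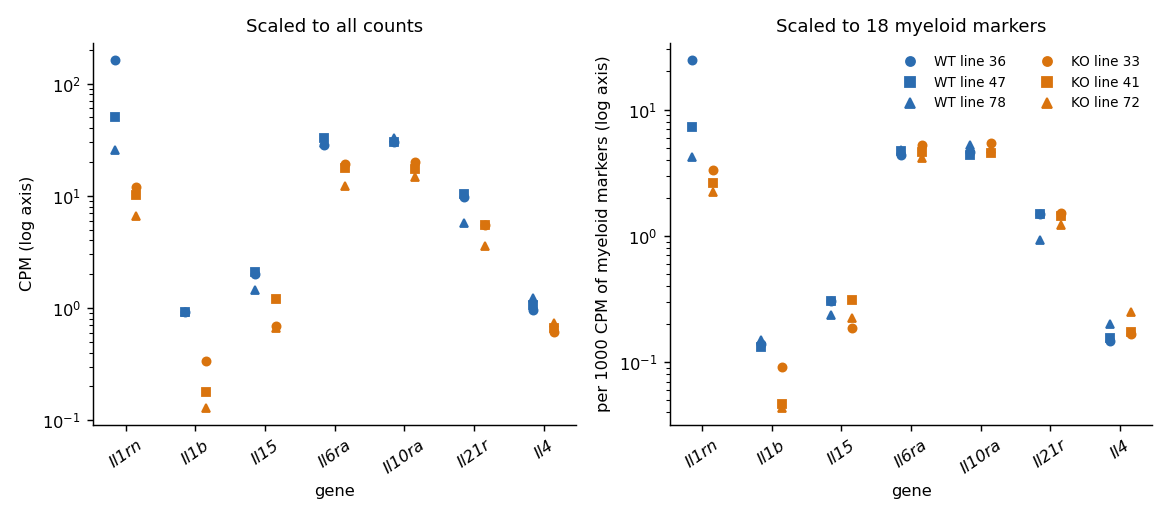
The 7 members lower at the study's thresholds in the 3 WT lines (blue) and 3 KO lines (orange), as CPM (left) and per 1000 CPM of the 18 summed myeloid markers of the same line (right), both on log axes. All 7, which were picked for their difference in CPM, separate by genotype on the left. On the right Il1rn and Il1b stay apart and Il15, Il6ra, Il10ra, Il21r and Il4 overlap. In CPM the KO means of Il1rn and Il1b were 12.1% and 23.3% of their WT means, against 53.2% for the marker sum. The share of all genes that separate on the right-hand scale was not counted.

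Some members varied widely between lines of one genotype. A range of 3-fold or more within a genotype was seen in 12 of the 44 tested members, 7 of which had a mean of at least 1 CPM. These were Il1rl1, Il1rn, Il17rd, Il1rl2, Il33, Il18rap and Il31ra, and apart from Il1rl1, Il1rn and Il33 they are named here because their values were seen to vary. The share of all genes tested with such a range was not counted, so the count of members says nothing particular to them.

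Il33, a nuclear alarmin released by damaged stromal cells, stood at 1.80, 2.06 and 8.16 CPM in the WT lines and 12.7, 2.46 and 0.233 CPM in the KO lines. KO line 33 was thus 54.5-fold above KO line 72. Il1rl1, whose product ST2 is the receptor for IL-33, stood at 135, 148 and 77.0 CPM in the WT lines and 32.8, 89.8 and 285 CPM in the KO lines. The line with the most Il33, KO line 33, had the least Il1rl1, and the line with the least Il33, KO line 72, had the most Il1rl1. By genotype they differed by 0.36 ± 1.25 and 0.18 ± 0.73 on the log2 scale (SE), with 95% intervals from -2.68 to 3.39 and from -1.60 to 1.95.

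Il1rl1 lies in a 477.6 kb stretch of chromosome 1 (40074079 to 40551705) that holds 5 members, Il1r2, Il1r1, Il1rl2, Il1rl1 and Il18rap, and their order over the lines was not the same. Il18rap, the accessory chain for IL-18, was high where Il1rl1 was high, at 2.47, 2.71 and 0.566 CPM in the WT lines and 0.808, 2.26 and 3.63 CPM in the KO lines. Il1r1 had its highest value of 95.5 CPM in WT line 78 and its lowest of 35.9 CPM in KO line 72, where Il1rl1 was highest. In KO line 33, where Il1rl1 was lowest, Il1r1 was between these, at 56.3 CPM. Il1rl2, the IL-36 receptor, was also highest in WT line 78, at 45.0 CPM, and lowest in KO line 72, at 9.18 CPM.

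Il17rd, which also restrains fibroblast growth factor signalling, had 41.5 to 48.9 CPM in the WT lines but 43.8, 65.5 and 19.0 CPM in the KO lines. Il31ra, the receptor for the itch cytokine IL-31, had 0.186, 0.621 and 3.58 CPM in the WT lines and 0.629 to 1.24 CPM in the KO lines.

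**Figure D5:**
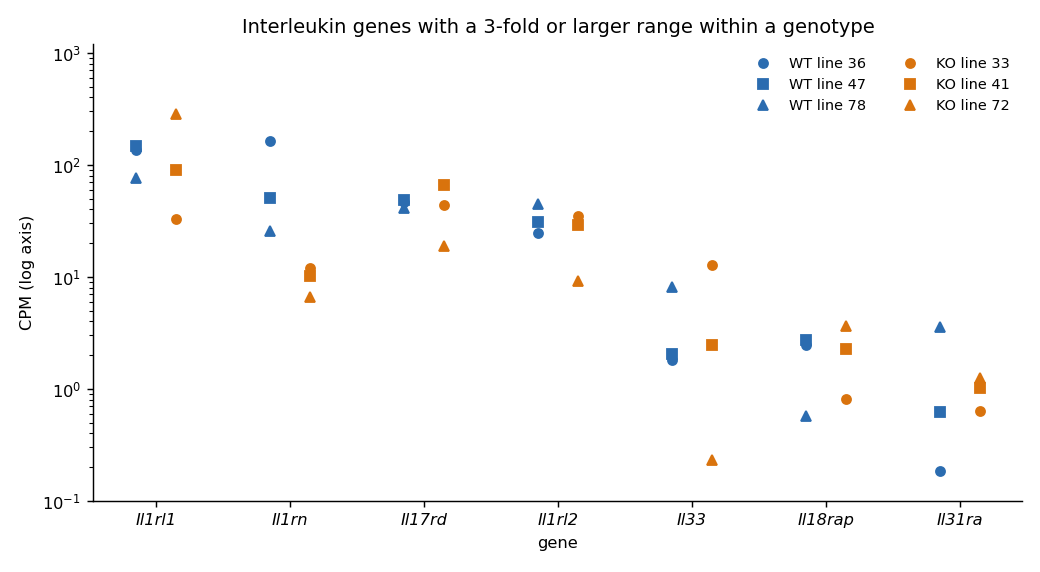
CPM (log axis) in each of the 3 WT lines (blue) and 3 KO lines (orange) for the 7 members with a mean of at least 1 CPM and a range of 3-fold or more within a genotype. KO line 72 is the highest for Il1rl1 and Il18rap and the lowest for Il33, Il1rl2 and Il17rd.

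Genes that act with interleukins but do not carry their name were described from a list of 54, of which 53 were tested. By the study's thresholds 6 of these were lower in the KO lines (11.3%) and none was higher, against the shares of 4.62% and 1.5% of all genes given above. Their median log2 fold change was -0.11. Of the 17 partner cytokines and receptors, 5 were lower. Osm, encoding the gp130 cytokine oncostatin M, had 2.05, 1.88 and 1.52 CPM in the WT lines and 0.808, 0.473 and 0.324 CPM in the KO lines, for a log2 fold change of -1.75 ± 0.38 (SE; adjusted p = 0.132, edgeR). Ebi3, the shared subunit of IL-27 and IL-35, differed by -0.96 ± 0.17 (SE; adjusted p = 0.0926, edgeR). Csf2rb and Csf2rb2, the beta chains that join Il3ra, differed by -0.83 and -1.17. They are near-identical copies, so their reads may have been divided unevenly.

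Csf1r, the macrophage receptor for CSF-1 and IL-34, fell by 0.74 on the log2 scale (adjusted p = 0.0353, edgeR) and is also 1 of the 18 myeloid markers. Its ligand gene Csf1 overlapped between genotypes at 365 to 415 CPM in the WT lines and 354 to 440 CPM in the KO lines, as did Osmr. Il34, the other ligand, had 1.12 to 1.96 CPM in the WT lines and 1.46 to 2.23 CPM in the KO lines.

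Among the 6 genes for processing and release, Casp1, the protease that matures IL-1β and IL-18, fell from 7.68, 8.94 and 8.14 CPM to 4.28, 4.16 and 3.37 CPM (adjusted p = 0.0496, edgeR). With 1 line left out, the adjusted p of Casp1 was 0.0587 to 0.247 and that of Csf1r 0.0483 to 0.230, the latter under 0.05 only without KO line 72 (edgeR). Adam17, which sheds the IL-6 receptor, differed by -0.47 on the log2 scale (unadjusted p = 0.00803, edgeR) and the inflammasome adaptor Pycard by -0.54 (unadjusted p = 0.0354, edgeR), both under 1.5-fold, while the sheddase Adam10 and the pore-forming Gsdmd overlapped between genotypes. None of the 11 kinases and STATs, 11 IL-1 and IL-17 adaptors and 9 inhibitors was past the study's thresholds, and Stat4 was left out by the filter. By the unadjusted p alone Irak4, a kinase of the IL-1 receptor complex, differed by -0.42 on the log2 scale (unadjusted p = 0.00272), its inhibitory relative Irak3 by -0.49 (0.0166), the IL-4 signal transducer Stat6 by -0.17 (0.0241) and the kinase Tyk2 by -0.23 (0.0351, all edgeR), and none of the 4 overlapped between genotypes. They were 2 of the 10 kinases and STATs, 1 of the 11 adaptors and 1 of the 9 inhibitors tested, against 14.6% of all genes tested. Lower without overlap were 2, 3 and 1 genes of these lists, against 12.4% of all genes tested. The most abundant genes of these lists were Jak1, Stat3 and Stat6, then Tab2, Map3k7 and Rela, and then Tollip, Pias3 and Nfkbia. They differed by -0.22 (Nfkbia) to 0.07 (Jak1) on the log2 scale.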

How the data were processed

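RNA-seq was performed on total RNA from 6 pMEF lines, and the authors deposited a single table of raw read counts per gene with a column for each line. The submitters' processing notes name mm10 and edgeR. The aligner, the counter, the annotation and the use of strand were not given in the sources used here. The deposited table also holds the authors' own comparison (log2 fold change, log2 mean CPM, F, p and q values), which was not used, and 0 sample columns were left unmapped. Among counts from 1 to 10, 75.1% were even, against 55.0% of those from 101 to 1000, so low counts may hold read pairs counted as 2.

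Members were matched to GENCODE M21 (GRCm38) by Ensembl identifier for positions and exon lengths, and 24 symbols that had become dates were restored. Genes were kept by filterByExpr, scaled by TMM and tested on the whole table with edgeR 4.0.16 (glmQLFit and glmQLFTest, genotype only, two-sided) in R 4.3.3, and p-values were adjusted by Benjamini and Hochberg. CPM are TMM-scaled. Alternatives used DESeq2 1.42.0, limma 3.58.1, other scalings and filters, lane, and leaving out each line. With 67720628 to 98786746 counts a library, the spread between lines limits the precision of all but the rarest members. Genes named are Hat1, members called or without overlap between genotypes, the 4 of highest mean level in each role, all antagonists, filtered members, and list genes called or among the 3 highest in their group. Partner chains and ligands of these, and members that varied between lines, were added after their values were seen. The members and lists were chosen with earlier results of these data known.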

Additional observations from a re-analysis of the deposited data

How the results depend on the processing

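The count of members lower at the study's thresholds, 7, was 3 with a 2-fold limit and 4 with an unadjusted p under 0.01. It was 5 with lane as a covariate (4 of the 7, and Il15ra), 6 with WT line 78 alone against the KO lines (4 of the 7, with the lone line assumed to vary like the KO lines) and 6 to 10 when a line was left out (5 to 6 of the 7). The count of higher members was 0, or 1 without KO line 41 (0 to 1). The count past an adjusted p of 0.05 was 0 in every edgeR fit but 8 by DESeq2 and 4 by voom. Of all 14773 genes tested, DESeq2 put 871 and voom 267 past it. The median log2 fold change of -0.22 was -0.37 without a filter, -0.35 with lane, -0.32 with WT line 78 alone against the KO lines, and -0.37 (without KO line 33) to -0.12 (without WT line 78) when a line was left out. Hat1 kept its direction, at -1.10 with lane (adjusted p = 0.529, edgeR), -0.97 with WT line 78 alone (adjusted p = 0.670) and -1.08 to -0.87 without a line (adjusted p 0.0587 to 0.230). With lane, Casp1 and Csf1r had adjusted p-values of 0.569 and 0.529, and Casp1 also exceeded 0.05 with DESeq2 size factors (0.0536) and without a filter (0.0627). The lane fit in effect also leaves out WT line 36, the only line on lane 8. Members without a call changed sign: Il16 was -0.16 by voom, -0.16 with lane and -0.13 to 0.24 without a line; Il18bp was 0.043 by voom and -0.38 to 0.048 without a line; Il1rl1 was -0.88 by voom and -0.96 to 0.64 without a line; Il33 was -0.65 with WT line 78 alone and -1.58 to 1.43 without a line; Il4ra was -0.11 to 0.055 without a line. The causes were not tested. Of the values of single genes, 309 kept their direction and side of an unadjusted p of 0.05, 23 lost a p under it, 2 gained one and 15 changed sign. Leaving out the myeloid marker genes or halving the counts, both added after seeing the data, left 7 lower members. Dropping the marker rows leaves each member's own counts as they were, so that fit could not test the part of the myeloid signal. No paired analysis was possible because the genotypes share no replicate numbers.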
